A study of Mus musculus with 12 samples.

Results

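Tetraspanins are small membrane proteins that cross the membrane several times and gather integrins, immunoglobulin-like proteins and proteases into surface domains known as tetraspanin webs. The family includes general web and exosome components such as CD9, CD63, CD81, CD82 and CD151, a group with an extra pair of cysteines (the TspanC8 proteins) that escorts the protease ADAM10 to the cell surface, members known from leukocytes, and the uroplakins of the bladder lining. In epithelia, web tetraspanins are known as partners of the laminin-binding integrins by which basal cells hold on to the basement membrane. Genes were taken as members where the table's symbol is Tspan followed only by digits, or is Cd9, Cd37, Cd53, Cd63, Cd81, Cd82, Cd151, Upk1a or Upk1b. This rule found 29 of the 21853 genes listed.

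Expression was measured by RNA-seq in CommaDβ cells, a mouse mammary epithelial line of non-tumour origin. The surface protein Sca-1 (stem cell antigen-1) was used to sort the line into Sca-high and Sca-low cells. The 4 groups had 3 libraries each. Sca-high 34a cells were sorted Sca-1 positive cells that carried a doxycycline-inducible lentiviral vector for miR-34a (pSliK34a) and were given doxycycline for 24 h. Sca-high NT cells carried the same vector and were not induced, Sca-high cells were sorted Sca-1 positive cells without the vector, and Sca-low cells were sorted Sca-1 negative cells without it. All groups come from 1 cell line, and no group here had doxycycline but lacked the vector, so miR-34a and the drug cannot be told apart. NT against Sca-high cells differ in infection and in the handling that goes with it. Libraries are numbered 1 to 12 as in the deposited table, 1 to 3 for Sca-high, 4 to 6 for Sca-low, 7 to 9 for NT and 10 to 12 for 34a cells. The labels do not name separate cultures behind the libraries of a group, and p-values therefore speak for the spread among these libraries alone, part of which may be technical.

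Values are RPKM, reads per kilobase of gene corrected for the size of the library, scaled between libraries by a trimmed mean of M values. A gene was tested where it had at least 1 RPKM in at least 3 libraries, which 10571 genes did. It was called where limma's adjusted p (Benjamini-Hochberg over all genes tested) was below 0.01 and the log2 fold change lay beyond 0.50 either way. Fold changes are on the log2(scaled RPKM + 0.1) scale, where the change of a low gene comes out too small, and are given with their standard error (SE). Levels are means ± SD over 3 libraries.

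The labels were checked first. Reads of *Mir34a* were 744, 632 and 1137 in 34a libraries, against 3, 8 and 4 in NT libraries, with 0, 0 and 3 in Sca-high and 0, 4 and 1 in Sca-low libraries. *Ly6a*, which encodes Sca-1, ran between 10.1 and 13.2 scaled RPKM in Sca-high libraries, against 0.986 to 1.87 in Sca-low libraries. The summed level of 4 basal markers (*Krt5*, *Krt14*, *Trp63*, *Acta2*) was 439 to 491 scaled RPKM in 34a, 1406 to 1559 in NT, 1289 to 1551 in Sca-high and 321 to 394 in Sca-low libraries, and that of 4 luminal markers (*Krt8*, *Krt18*, *Krt19*, *Epcam*) was 5.34 to 6.39 in 34a, 4.26 to 5.07 in NT, 12.9 to 14.7 in Sca-high and 739 to 795 in Sca-low libraries. Members of a list did not all move alike. *Krt18* averaged 3.95 ± 0.38 in 34a and 2.55 ± 0.22 in NT cells, while *Krt8* (1.22 ± 0.26 and 1.36 ± 0.11) and *Epcam* (0.53 ± 0.13 and 0.62 ± 0.14) were not higher. *Krt19* was near 0.1 in both. *Krt14* averaged 284 ± 48 in 34a and 326 ± 33 in Sca-low cells, and *Krt5* 177 ± 67 and 31.2 ± 7.9. The markers differ between the groups, and their part in the results on tetraspanins was not tested. In bulk RNA fewer cells of a type and less RNA per cell cannot be told apart. Between libraries of 1 group, the chi-square per gene of recovered reads was 40.6 to 93.1 in the 4 pairs with library 3 or 12 and 6.99 to 19.3 in the 8 other pairs. These 2 libraries stood apart. Values without them are given for some members, and the other values rest on all libraries.

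miR-34a acts by pairing of its seed, bases 2 to 8, with matching stretches of messenger RNA, most often in the 3′ UTR. The mature strand (RefSeq, GRCm38.p6, chr4:150068473-150068494, plus strand) and the matches in the 4 members that fell after induction are shown because the fold changes are set against them below. The seed is in capitals in the miRNA, and the bases that pair with it, with a following A where there is one, are in capitals in the sites.
mmu-miR-34a-5p: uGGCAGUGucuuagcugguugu
Cd53, chr3:106760460-106760484, minus strand: ggtggcttgagatcCACTGCCAgct
Tspan11, chr6:127950037-127950061, plus strand: cctaagtactcagcCACTGCCAaaa
Tspan11, second site, chr6:127953345-127953369, plus strand: tggaccacgtgaggaCACTGCCccc
Tspan14, chr14:40907459-40907483, minus strand: tggggagcacatcacCACTGCCttc
Tspan5, chr3:138906981-138907005, plus strand: tagaagatgatattCACTGCCAcca

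The sites lie in the longest 3′ UTR that GENCODE vM21 (GRCm38) annotates for each gene, which is a later build than the mm9 of the study. Of the tested members, 7 of 19 (36.8%) held a match to the seed (CACTGCC), against 17.3% of 9833 tested genes with an annotated 3′ UTR. The other 3 were *Tspan7* and *Tspan9*, which were not called after induction, and *Tspan31*, which had a higher level (0.48) under the fold threshold and was called higher without library 7, 9 or 12.

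The 29 members spanned a wide range of levels. By the mean of their highest group, 5 members reached 50 scaled RPKM or more (*Cd9*, *Cd63*, *Cd81*, *Cd151* and *Tspan31*), 7 lay between 10 and 50, 7 between 1 and 10, and 10 below 1. The summed level of the family was 459 to 478 scaled RPKM in 34a, 436 to 468 in NT, 389 to 402 in Sca-high and 375 to 390 in Sca-low libraries. *Cd9*, *Cd63*, *Cd81* and *Cd151* together held 54.4% to 63.3% of this sum in 34a, 58.5% to 63.4% in NT, 66.1% to 70.6% in Sca-high and 63.5% to 64.7% in Sca-low libraries. These 4 web tetraspanins thus made up most of the family's level in every library.

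The 10 members below 1 scaled RPKM did not pass the filter. They are *Cd37*, *Tspan1*, *Tspan8*, *Tspan10*, *Tspan13*, *Tspan18*, *Tspan32*, *Tspan33*, *Upk1a* and *Upk1b*. *Tspan8* had 0 to 2 reads in a library. Of the uroplakins, *Upk1a* had 18 to 33 and *Upk1b* 3 to 33 reads in a library, while their partners *Upk2* and *Upk3a* summed to at most 0.0127 scaled RPKM in a library. When every gene above 0 in a library was fitted (18850 genes), limma called 3 of the 10 for Sca-high minus Sca-low cells, against 29.5% of all genes, and 3 for NT minus Sca-high cells, against 16% of all genes. For 34a minus NT cells it called 0 of the 10, with 2 at an unadjusted p below 0.05, against 25.9% of all genes called. *Tspan13* averaged 0.0156 ± 0.0038 scaled RPKM in Sca-high cells, against 0.623 ± 0.071 in Sca-low cells (log2 fold change −2.64, SE 0.17), and *Tspan33*, of the TspanC8 group, 0.0830 ± 0.0047 in Sca-high cells, against 0.693 ± 0.051 in Sca-low cells (−2.11, SE 0.11). *Upk1b* was higher in Sca-high cells relative to Sca-low cells (1.31, SE 0.12). It was lower in NT relative to Sca-high cells (−1.00, SE 0.12), where *Tspan13* was higher (0.94, SE 0.17) and *Tspan32*, known from blood cells, lower (−0.65, SE 0.09). All of these rest on few reads.

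**Figure D1:**
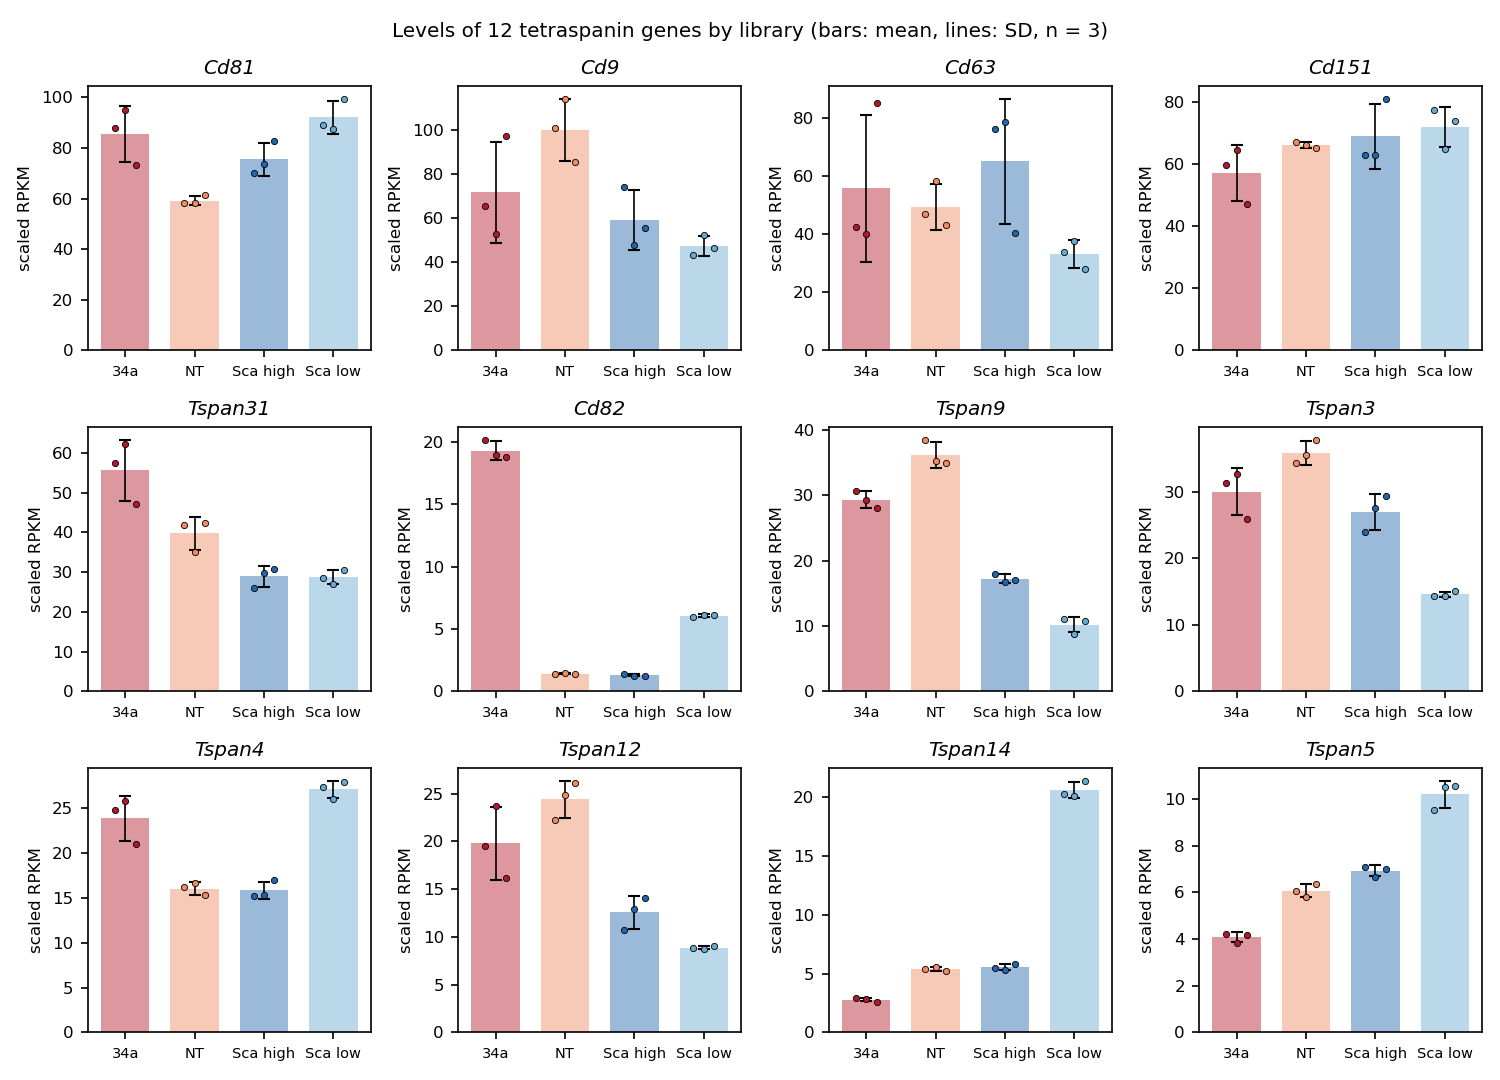
Scaled RPKM of 12 tetraspanin genes in each library (points), with the mean (bar) and SD (line) of 3 libraries, for Sca-high 34a, Sca-high NT, Sca-high and Sca-low cells. *Cd82* averaged 19.3 in 34a and 1.43 in NT cells, and *Tspan14* was highest in Sca-low cells at 20.6.

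The first comparison, 34a against NT cells, asks what miR-34a induction changes in Sca-high cells. The metastasis suppressor *Cd82* rose more than any other member and *Cd53*, *Tspan11*, *Tspan14* and *Tspan5* fell, while of the 4 most abundant tetraspanins only *Cd81* was called. Of 19 members tested, 9 were called, 5 higher (*Cd82*, *Tspan17*, *Tspan2*, *Tspan4*, *Cd81*) and 4 lower, and 10 were not called. Among all genes tested 38.9% were called, 18.1% higher and 20.8% lower, so the count of members lay near that of other genes. The median log2 fold change was −0.19 over the members and −0.02 over all genes tested.

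*Cd82*, known in human tumours as a metastasis suppressor, had 20.2, 18.9 and 18.8 scaled RPKM in 34a libraries, against 1.36, 1.504 and 1.43 in NT libraries. It was also 1.39, 1.23 and 1.24 in Sca-high and 5.93, 6.09 and 6.14 in Sca-low libraries. The libraries of these groups do not overlap except between NT and Sca-high cells, and the 34a libraries lie above the Sca-low ones. The log2 fold change after induction was 3.66 (SE 0.07, adjusted p = 4.0e-12), and over 23 other ways of processing it ranged between 3.06 and 3.77.

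*Tspan4*, known as a component of migrasomes, had 24.8, 25.8 and 21.0 scaled RPKM in 34a libraries and 16.2, 16.7 and 15.3 in NT libraries. Every 34a library was above every NT library, with a log2 fold change of 0.57 (SE 0.08, adjusted p = 7.1e-05). Its exons share 292 bases with *Chid1* on the opposite strand, and *Chid1* was also called higher (0.78), at 12.1 ± 2.0 in 34a and 6.97 ± 0.35 in NT cells. Whether reads were counted by strand is not given in the sources used here, so reads of the shared stretch cannot be told apart.

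*Cd81*, a web tetraspanin known as an exosome component, had 87.8, 95.2 and 73.5 scaled RPKM in 34a libraries and 58.1, 58.1 and 61.3 in NT libraries. The groups do not overlap, but the log2 fold change of 0.52 (SE 0.10, adjusted p = 6.5e-04) lay just past the fold threshold. It came to 0.499 without library 10 and 0.44 without library 11, and was then no longer called.

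A pair of members at low levels also rose. *Tspan17*, a TspanC8 gene, ranged between 4.14 and 4.74 scaled RPKM in 34a and between 1.30 and 1.48 in NT libraries, a log2 fold change of 1.66 (SE 0.12, adjusted p = 3.0e-07). *Tspan2*, known from oligodendrocytes, ranged between 1.39 and 1.63 in 34a and between 0.667 and 0.754 in NT libraries (1.01, SE 0.08, adjusted p = 5.1e-07). Both were non-overlapping.

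Of the 4 members that fell, *Tspan14* and *Tspan5* are TspanC8 genes. *Tspan14* had 2.91, 2.81 and 2.62 scaled RPKM in 34a libraries, against 5.36, 5.53 and 5.21 in NT libraries (−0.92, SE 0.06, adjusted p = 1.2e-07). *Tspan5* had 4.21, 3.82 and 4.17 in 34a libraries, against 6.06, 5.78 and 6.36 in NT libraries (−0.57, SE 0.07, adjusted p = 1.6e-05). Neither gene's groups overlap, and the value of *Tspan5* was not called with upper quartile scaling (−0.49) or a pseudocount of 1 (−0.48), where it fell short of the fold threshold.

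*Cd53* and *Tspan11* were low genes that fell. *Cd53* passed the filter on low values only through NT and Sca-high libraries. *Cd53*, known from leukocytes, ranged between 0.324 and 0.586 scaled RPKM in 34a and between 2.20 and 2.51 in NT libraries (−2.19, SE 0.20, adjusted p = 1.5e-06). *Tspan11* ranged between 1.22 and 1.54 in 34a and between 3.44 and 3.57 in NT libraries (−1.30, SE 0.13, adjusted p = 2.8e-06). Beside *Cd53*, the summed level of 8 leukocyte markers was 3.35 to 4.08 scaled RPKM in 34a and 7.68 to 7.81 in NT libraries, and it was 2.01 to 2.54 in Sca-high and 6.78 to 7.95 in Sca-low libraries, where *Cd53* lay the other way. Nearly all of it was *Cd14* and *Cd68*, the only ones of the 8 that passed the filter. The defining leukocyte genes *Ptprc* and *Cd3e* averaged at most 0.018 scaled RPKM in any group, and *Cd3e* had no reads in 34a cells. Others of the 8 differed between groups. *Itgam* averaged 0.397 ± 0.031 in Sca-low and 0.019 ± 0.005 in Sca-high cells, and *Lyz2* 0.049 ± 0.019 in 34a and 0.007 ± 0.012 in NT cells. Whether leukocytes were present was not tested.

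**Figure D2:**
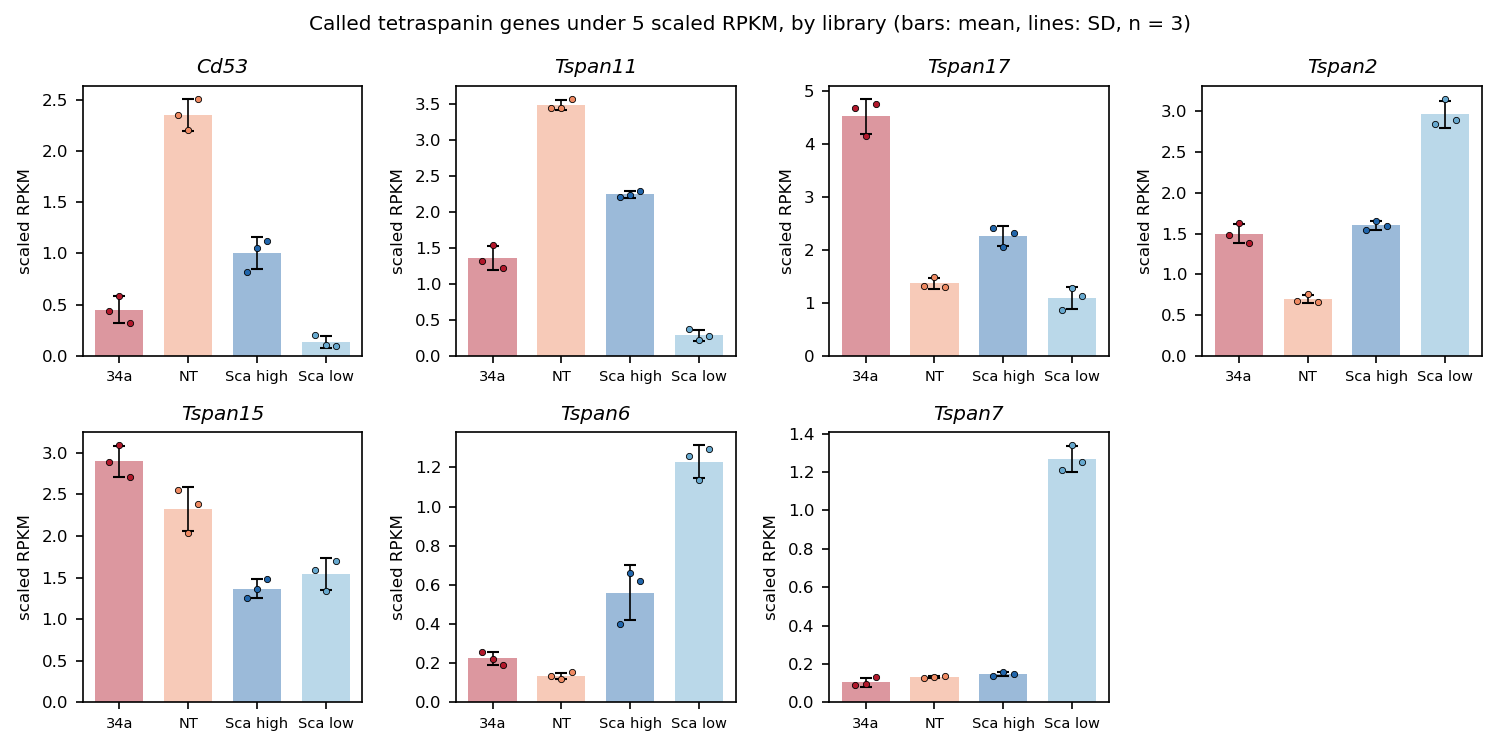
Scaled RPKM in each library (points), with the mean (bar) and SD (line) of 3 libraries, of 7 called tetraspanin genes whose highest group mean was under 5. *Cd53* and *Tspan11* were highest in NT cells, *Tspan17* in 34a cells and *Tspan7* in Sca-low cells.

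The other abundant members were not called after induction. *Cd9*, known for its part in membrane fusion and exosomes, had 65.6, 52.6 and 97.0 scaled RPKM in 34a libraries and 100.6, 113.8 and 85.5 in NT libraries. The groups overlap through library 12, and the log2 fold change of −0.52 (SE 0.21) had an adjusted p of 0.051. Without library 12 it was −0.76 (adjusted p = 0.003) and was called lower. *Cd63*, a marker of late endosomes and exosomes, had 42.4, 40.0 and 85.0 in 34a libraries, again with library 12 apart, and 46.9, 58.3 and 43.0 in NT libraries (0.10, SE 0.30, adjusted p = 0.80), and its value was −0.25 without library 12. *Cd151*, the partner of laminin-binding integrins, had 59.6, 64.6 and 47.0 in 34a libraries and 67.04, 66.1 and 65.2 in NT libraries (−0.22, SE 0.13, adjusted p = 0.14). Its 95% interval runs from −0.51 to 0.06.

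*Tspan31*, known in human sarcomas as a gene amplified next to *CDK4*, had 57.5, 62.2 and 47.0 scaled RPKM in 34a libraries and 41.8, 35.0 and 42.3 in NT libraries. Its log2 fold change of 0.48 (SE 0.11, adjusted p = 0.003) passed the p threshold and not the fold threshold, and was called without library 12 (0.59), 7 (0.52) or 9 (0.53). Its exons share 641 bases with *Cdk4* on the opposite strand, and *Cdk4*, a cell cycle kinase, was called lower (−0.76), at 79.2 ± 10.1 in 34a and 133.7 ± 4.7 in NT cells. *Tspan12*, which in mice takes part in Norrin signalling through Frizzled-4, had 19.5, 23.7 and 16.1 in 34a libraries and 22.2, 24.9 and 26.1 in NT libraries (−0.31, SE 0.13, adjusted p = 0.056). *Tspan3* had 31.3, 32.7 and 25.9 in 34a and 34.2, 35.4 and 37.8 in NT libraries (−0.26, SE 0.10, adjusted p = 0.030), and *Tspan9*, known from platelets, 30.7, 29.3 and 28.0 in 34a and 38.5, 35.3 and 34.9 in NT libraries (−0.30, SE 0.08, adjusted p = 0.008). For *Tspan3* and *Tspan9* the groups do not overlap, but the changes were under the fold threshold.

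**Figure D3:**
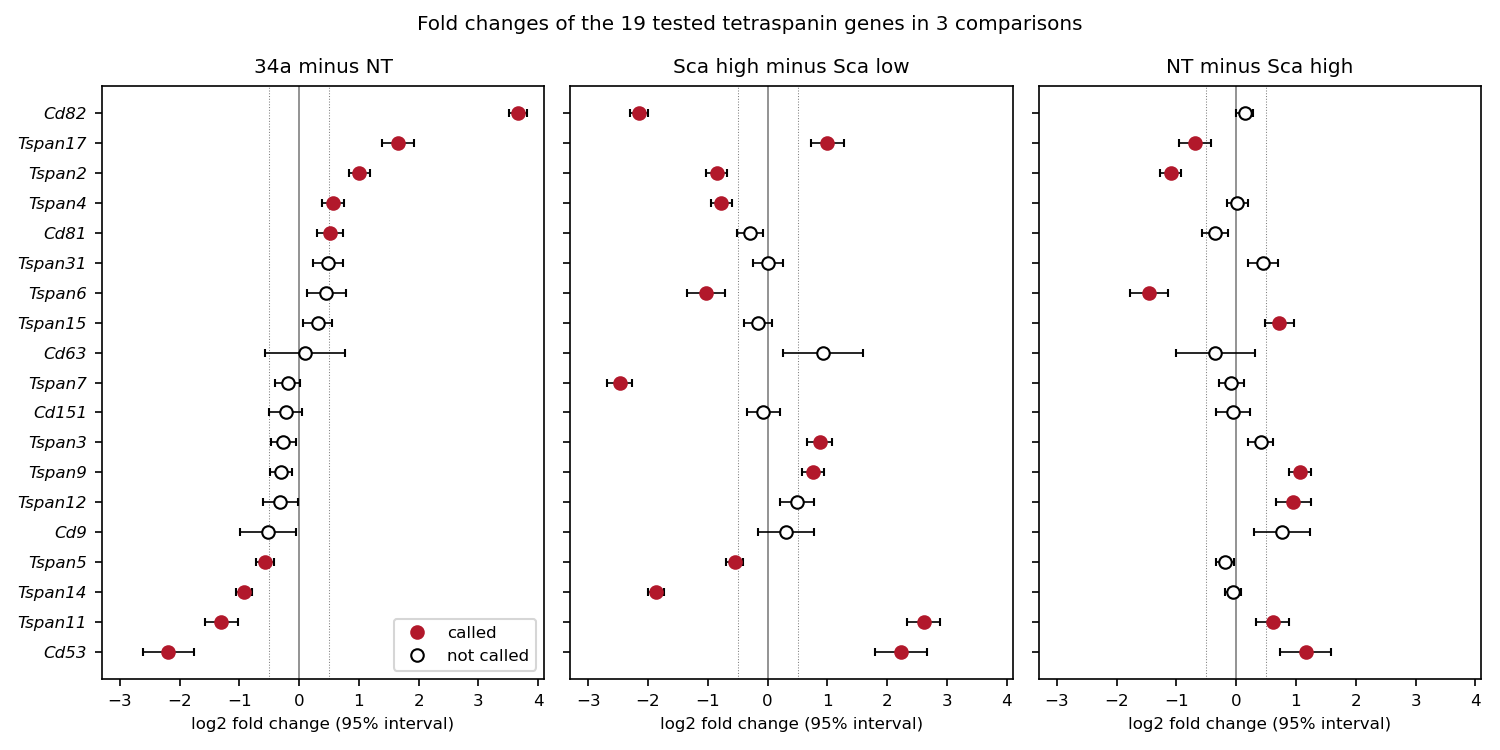
Log2 fold changes of the 19 tested tetraspanin genes with 95% intervals for 34a minus NT, Sca-high minus Sca-low and NT minus Sca-high cells. Filled points passed both thresholds, and dotted lines mark 0.50 either way. The value of *Cd82* was 3.66 in the first comparison and −2.15 in the second.

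All 4 members that fell after induction held a seed match, and none of the 5 that rose did. This split did not hold without library 12, where 4 of 5 members called lower and 1 of 6 called higher held a match, as *Cd9* (−0.76, no match) and *Tspan31* (0.59, 1 match) were then called. *Tspan31* was also called higher without library 7 or 9, on the RPKM as deposited, with upper quartile scaling and by limma-voom on recovered reads. *Cd53*, with a match, passed the filter only through NT and Sca-high libraries, which favours its call as a fall. A filter of at least 1 RPKM in every library left out *Cd53*, *Tspan11*, *Tspan17* and *Tspan2*. Under it 2 of 2 members called lower (*Tspan14* and *Tspan5*) and 0 of 3 called higher held a match. Among all genes tested with an annotated 3′ UTR, a seed match was found in 23.0% of those called lower, 12.4% of those called higher and 16.9% of those not called. The 7 members with a match had a median log2 fold change of −0.57 and the 12 without one 0.38, and over all genes these medians were −0.17 (1704 genes) and 0.02 (8129 genes). The 3′ UTRs of the members that fell were 883 to 5461 bases long (median 2869) and those of the members that rose 474 to 3350 bases (median 560). Members with a match had a median length of 3032 bases and those without one 756.5. Over all genes these medians were 2246.5 and 1017. The part of length in the split was not tested. The match of *Tspan5* begins 4551 bases after the stop codon and that of *Tspan7* 5089 bases after it, and these data do not show whether the transcripts made in these cells reach that far. A match is a run of letters and was not tested as a site of binding.

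**Figure D4:**
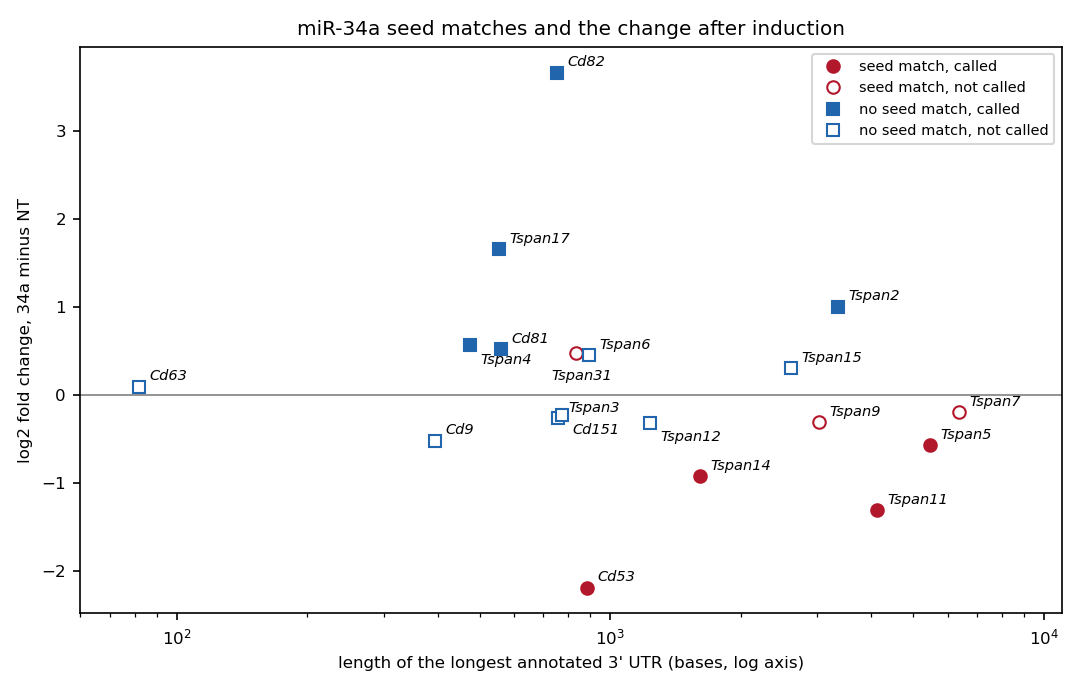
Log2 fold change of 34a minus NT cells for the 19 tested tetraspanin genes against the length of the longest annotated 3′ UTR (log axis). Circles hold a match to bases 2 to 8 of miR-34a and squares do not, and filled symbols were called. *Cd53*, *Tspan11*, *Tspan14* and *Tspan5* are the filled circles, all below 0.

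The second comparison, Sca-high against Sca-low cells, asks how the 2 sorted populations differ. *Tspan14*, *Tspan7*, *Cd82* and *Tspan6* were lower in Sca-high cells, and *Tspan11*, *Cd53*, *Tspan17*, *Tspan3* and *Tspan9* were higher. Of 19 members tested, 12 were called, 5 higher and 7 lower, and 7 were not. Among all genes tested 40.3% were called, 20.7% higher and 19.7% lower. The 12 include *Tspan6* and *Tspan7*, which passed the filter only through Sca-low libraries, and *Cd53*, which passed only through NT and Sca-high libraries. This favours their calls here. With at least 1 RPKM in every library, 6 of 13 members were called, 2 higher and 4 lower, against 2874 of 8440 genes. The median log2 fold change was −0.07 over the members and 0.02 over all genes.

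*Tspan14* had 5.51, 5.32 and 5.84 scaled RPKM in Sca-high libraries and 20.3, 20.1 and 21.4 in Sca-low libraries (−1.87, SE 0.06, adjusted p = 2.2e-10). *Cd82* had the values given above (−2.15, SE 0.07, adjusted p = 1.2e-10). *Tspan4* had 15.3, 15.4 and 16.9 in Sca-high and 27.4, 26.0 and 27.9 in Sca-low libraries (−0.77, SE 0.08, adjusted p = 5.2e-06). In all 3 the groups are apart.

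*Tspan5* was lower too, with 7.10, 6.66 and 7.003 scaled RPKM in Sca-high libraries, against 9.51, 10.5 and 10.6 in Sca-low libraries (−0.55, SE 0.07, adjusted p = 2.0e-05). The value was −0.49 on the RPKM as deposited and −0.50 with a pseudocount of 1, where it was not called. *Tspan7*, known from neurons, and *Tspan6* passed the filter only through Sca-low libraries, where *Tspan7* had 1.21 to 1.34 and *Tspan6* 1.14 to 1.29 scaled RPKM. In Sca-high libraries *Tspan7* had 0.136 to 0.156 and *Tspan6* 0.40 to 0.661. Their log2 fold changes were −2.47 (SE 0.09) and −1.03 (SE 0.15). *Tspan2* ranged between 1.55 and 1.66 in Sca-high and between 2.85 and 3.15 in Sca-low libraries (−0.85, SE 0.08).

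Of the members that were higher in Sca-high cells, *Tspan3* had 23.9, 27.5 and 29.3 scaled RPKM in Sca-high and 14.3, 14.4 and 15.0 in Sca-low libraries (0.88, SE 0.10, adjusted p = 7.4e-06). *Tspan9* had 17.95, 16.7 and 17.1 in Sca-high and 11.1, 8.84 and 10.8 in Sca-low libraries (0.75, SE 0.08, adjusted p = 9.6e-06). Both were higher in every Sca-high library. *Tspan11* ranged between 2.20 and 2.29 in Sca-high and between 0.222 and 0.374 in Sca-low libraries (2.61, SE 0.13), *Cd53* between 0.823 and 1.12 in Sca-high and between 0.10 and 0.205 in Sca-low libraries (2.23, SE 0.20), and *Tspan17* between 2.05 and 2.40 in Sca-high and between 0.862 and 1.28 in Sca-low libraries (1.00, SE 0.12).

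limma called none of the 5 most abundant tetraspanins between the sorted cells, with 2 (*Cd63* and *Cd81*) at an unadjusted p below 0.05, although the fold change of *Cd63* was larger than that of several called members. *Cd81* had 70.2, 73.6 and 82.9 scaled RPKM in Sca-high and 89.3, 87.6 and 99.5 in Sca-low libraries (−0.29, SE 0.10, adjusted p = 0.023). *Cd63* had 76.3, 78.7 and 40.3 in Sca-high and 33.9, 37.6 and 27.9 in Sca-low libraries (0.92, SE 0.30, adjusted p = 0.019). All Sca-high libraries were above the Sca-low ones, with library 3 the nearest to them, and without library 3 the value was 1.23 and called (adjusted p = 0.002). *Cd9* had 74.2, 47.8 and 55.7 in Sca-high and 43.4, 52.1 and 46.4 in Sca-low libraries, which overlap (0.30, SE 0.21, adjusted p = 0.23). *Cd151* had 62.9, 62.8 and 81.0 in Sca-high and 77.2, 64.9 and 73.8 in Sca-low libraries (−0.07, SE 0.13, adjusted p = 0.65). *Tspan12* had 10.7, 12.9 and 14.1 in Sca-high and 8.87, 8.69 and 9.02 in Sca-low libraries (0.49, SE 0.13, adjusted p = 0.006), just under the fold threshold, and was called higher without library 1 (0.60). *Tspan31* had 26.0, 29.9 and 30.9 in Sca-high and 28.5, 27.0 and 30.5 in Sca-low libraries (0.01, SE 0.11).

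The third comparison, NT against Sca-high cells, shows what differed with the uninduced vector and its handling. Of 19 members tested, 8 were called, 5 higher (*Cd53*, *Tspan9*, *Tspan12*, *Tspan15*, *Tspan11*) and 3 lower (*Tspan6*, *Tspan2*, *Tspan17*), against 21.3% of all genes tested, 9.71% higher and 11.6% lower. With scaling factors from all genes, the split was 8 higher and 3 lower for the members and 1478 higher and 931 lower for all genes, in place of 1026 higher and 1227 lower. Median log2 fold changes were 0.02 over the members and −0.01 over all genes. As this comparison shares NT cells with the first and Sca-high cells with the second, its values are given beside theirs and not counted against them.

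*Tspan9* had 38.5, 35.3 and 34.9 scaled RPKM in NT libraries, against 17.95, 16.7 and 17.1 in Sca-high libraries (1.07, SE 0.08, adjusted p = 1.5e-06). *Tspan12* had 22.2, 24.9 and 26.1 in NT libraries, against 10.7, 12.9 and 14.1 in Sca-high libraries (0.95, SE 0.13, adjusted p = 1.3e-04). In both genes the NT libraries lay wholly above the Sca-high ones. The log2 fold changes of the low members were 1.16 (SE 0.20) for *Cd53*, 0.61 (SE 0.13) for *Tspan11*, 0.72 (SE 0.11) for *Tspan15*, −0.68 (SE 0.12) for *Tspan17*, −1.10 (SE 0.08) for *Tspan2* and −1.46 (SE 0.15) for *Tspan6*. The values of *Cd82* (0.14, SE 0.07, adjusted p = 0.093), *Tspan14* (−0.05, SE 0.06, adjusted p = 0.52) and *Tspan4* (0.02, SE 0.08, adjusted p = 0.87) were not called, and their 95% intervals lay between −0.19 and 0.29. *Cd9* had an adjusted p of 0.011 (0.77, SE 0.21), and it was called without library 1, 11 or 12. *Tspan31* had 0.46 (SE 0.11, adjusted p = 0.006), under the fold threshold, and was called without library 3 (0.50) or 8 (0.54). Without libraries 3 and 12 together *Cd63* was called lower (−0.66).

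The change after induction was then set against the difference between the sorted populations, since those comparisons share no library. Of the 8 members called in both, 5 (*Cd53*, *Cd82*, *Tspan2*, *Tspan4* and *Tspan11*) moved after induction towards the level of Sca-low cells and 3, all of the TspanC8 group (*Tspan5*, *Tspan14* and *Tspan17*), moved away from it. Among all genes tested, 1839 were called in both and 47.5% of them moved towards Sca-low cells. *Cd53* passed the filter only through the groups in which it was high in both comparisons, which favours that direction, and without it 4 of 7 members moved towards Sca-low cells. The difference of the 2 changes, 34a minus NT less Sca-low minus Sca-high, was called for 7 members, 4 higher and 3 lower, against 53.2% of all genes tested. It was 1.51 (SE 0.09) for *Cd82*, whose 34a level passed that of Sca-low cells, 1.30 (SE 0.18) for *Tspan11*, whose 34a level stopped short of it, −2.79 (SE 0.09) for *Tspan14*, 2.66 (SE 0.17) for *Tspan17*, −1.12 (SE 0.09) for *Tspan5*, −2.67 (SE 0.13) for *Tspan7* and 0.61 (SE 0.13) for *Tspan3*. *Tspan7* passed the filter only through Sca-low libraries, which favours its call here. For *Cd53* it was 0.05, with a 95% interval from −0.56 to 0.66, for *Tspan2* 0.16 (−0.09 to 0.41) and for *Tspan4* −0.21 (−0.46 to 0.04), and these 3 were not called. Without libraries 3 and 12, *Cd63* (0.98) and *Tspan31* (0.55) were called too.

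**Figure D5:**
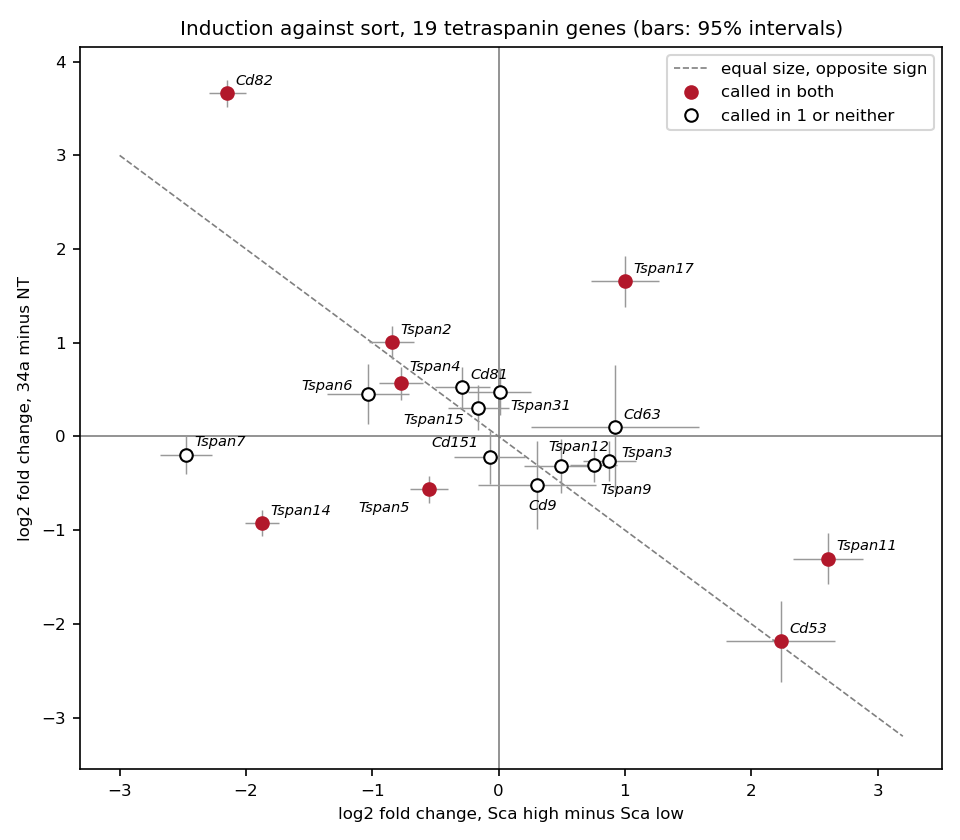
Log2 fold change of 34a minus NT cells against that of Sca-high minus Sca-low cells for the 19 tested tetraspanin genes, with 95% intervals. The dashed line marks changes of equal size and opposite sign. *Tspan14* and *Tspan5* at the lower left and *Tspan17* at the upper right lie away from it.

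The make-up of the TspanC8 group differed between the groups of cells. The summed level was 14.4 ± 0.4 scaled RPKM in 34a, 15.3 ± 0.2 in NT, 16.2 ± 0.6 in Sca-high cells and 34.2 ± 1.3 in Sca-low cells. *Tspan14* held 19.4% ± 1.0 of this sum in 34a, 35.2% ± 1.5 in NT, 34.3% ± 0.6 in Sca-high cells and 60.3% ± 1.2 in Sca-low cells (SD, n = 3). *Tspan17* held 31.4% ± 1.7 in 34a, 8.96% ± 0.81 in NT, 13.9% ± 0.7 in Sca-high cells and 3.18% ± 0.57 in Sca-low cells. *Tspan5* held 28.3% ± 0.9 in 34a, 39.7% ± 1.5 in NT, 42.8% ± 0.8 in Sca-high cells and 29.8% ± 1.0 in Sca-low cells. The leading gene was thus *Tspan17* in 34a cells, *Tspan5* in NT and Sca-high cells and *Tspan14* in Sca-low cells. *Tspan15* rose in NT cells, ranging between 2.04 and 2.56 scaled RPKM there and between 1.25 and 1.49 in Sca-high libraries, and was 2.71 to 3.09 in 34a libraries (0.31, SE 0.11, adjusted p = 0.027 against NT). *Adam10*, which these proteins escort, had 7.54 ± 3.15 in 34a, 9.50 ± 0.82 in NT, 10.04 ± 2.91 in Sca-high cells and 8.76 ± 1.93 in Sca-low cells. It was called in none of the 3 comparisons.

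Of 28 known partners of tetraspanins, 19 were tested. After induction 3 were higher, 4 lower and 12 not called, with a median log2 fold change of −0.16, so that 7 of 19 were called against 38.9% of all genes tested. The laminin-binding integrin genes *Itga6*, at 18.3 ± 1.3 scaled RPKM in 34a and 26.8 ± 2.3 in NT cells (−0.55, SE 0.07), and *Itgb4*, at 8.88 ± 3.41 in 34a and 23.6 ± 2.6 in NT cells (−1.46, SE 0.24), fell, while *Cd47* (0.80, SE 0.15) and *Rom1*, a tetraspanin of photoreceptors outside the naming rule (0.63, SE 0.11), rose. *Rom1* was low, at 1.13 ± 0.08 in 34a and 0.70 ± 0.11 in NT cells. It passed the filter only through 34a libraries, which favours its call as a riser. In the comparison of sorted cells, 10 of 19 partners were called, against 40.3% of all genes tested. In Sca-high cells 6 were higher, with *Ptgfrn* (0.88, SE 0.07) and *Itga6* (0.61, SE 0.07) the clearest, and 4 lower, led by the epithelial adhesion gene *Epcam*, with 2.56 ± 0.19 in Sca-high cells, against 111.4 ± 5.6 in Sca-low cells (−5.39, SE 0.16), and *Cldn7* (−4.82, SE 0.18). In NT against Sca-high cells 4 were lower and 15 not called, against 21.3% of all genes called, with *Epcam* (−1.91, SE 0.16) and *Cldn7* (−1.10, SE 0.18) among the 4. These 2 were low there, *Epcam* at 0.617 ± 0.144 in NT cells and *Cldn7* at 0.105 ± 0.042 in NT and 0.334 ± 0.038 in Sca-high cells. *Cldn7* passed the filter only through Sca-low libraries, which favours its call between the sorted cells.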

How the data were processed

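Total RNA of 12 libraries of CommaDβ cells (Illumina TruSeq) was sequenced. The deposited table gives, as RPKM made by the authors, 1 value for each gene in each library. The submitters' processing notes list TopHat2 2.0.6, the mm9 build and DESeq2, while for the read counter and the gene annotation nothing is given in the sources used here. The table also holds the authors' group means and their own DESeq2 fold changes, p-values and selections for 2 comparisons, none of which was used. Column names hold a group and a running number, and groups were taken from titles and source names. A genotype tag of the labels gives NT and 34a samples the other way round, and reads of *Mir34a* follow the titles.

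Deposited values are multiples of what 1 read is worth. Whole reads (within 0.1 read) were recovered for 18808 of 18912 genes above 0. The genes left out, among them the most abundant ones, lack the digits for this. The shortest gene length that gave whole reads was taken, so the reads of a gene may be a fraction of the true number. Of 226 small RNA genes with at least 5 reads, 195 came out at their reference length. Recovered reads numbered 28237432 to 34525086 per library, and the RPKM had been divided by 73.1 M to 84.7 M reads. Recovered reads served for depth, the read counts given above, the chi-square between libraries, the simulated data and 1 alternative.

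RPKM were scaled by an unweighted trimmed mean of M values (30% of M, 5% of A), computed on the genes that passed the filter (1 RPKM in at least 3 libraries), and limma 3.58.1 (R 4.3.3) with a trend was fitted on log2(scaled RPKM + 0.1) over 10571 genes, with 4 group means, 8 residual and 3.22 prior degrees of freedom. Genes listed without a symbol (182) were left out. The thresholds are the study's. On simulated data, the fit recovered 95.0% (34a minus NT), 92.0% (Sca-high minus Sca-low) and 92.9% (NT minus Sca-high) of genes changed by a log2 of 1, over 10849, 10999 and 11202 genes tested. The changed genes were drawn only from genes with many reads. All libraries were simulated with the same spread, none standing apart. These rates therefore do not speak for members with few reads or for the libraries that stood apart.

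Values in every library are given for members called in a comparison with a mean of at least 5 scaled RPKM in the higher group, or at 50 in any group. Other members are given by range, and from the partner list at most 2 called risers and 2 fallers with the smallest p are named, beside *Adam10*. The members and lists were chosen with earlier results of these data known. Seed matches were searched on the sense strand of 3′ UTRs of GENCODE vM21, and all 29 members had an annotated 3′ UTR. Alternatives covered scaling, pseudocount, filter, thresholds, libraries in the fit, limma-voom on recovered reads, and each library left out. Python 3.11.15, numpy 2.4.6, pandas 2.3.3, scipy 1.17.1 and matplotlib 3.10.9 were used.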

Additional observations from a re-analysis of the deposited data

How the results depend on the processing

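No called fold change of a member reversed under any alternative. Counts of members called moved by more than 1.5 times in these cases. With at least 1 RPKM in every library, which keeps 13 members in the test, 5 were called for 34a minus NT, 6 for Sca-high minus Sca-low, 3 for NT minus Sca-high and 4 for the difference of changes. With no filter, 11 were called for the difference of changes, where all 29 members were tested. With a pseudocount of 1, 4 were called for NT minus Sca-high, since *Tspan11* (0.47), *Tspan15* (0.49), *Tspan17* (−0.46) and *Tspan6* (−0.45) fell short of the fold threshold. Leaving out each library in turn gave 8 to 11 members for 34a minus NT, 12 to 13 for Sca-high minus Sca-low, 8 to 9 for NT minus Sca-high and 7 to 8 for the difference of changes. Without libraries 3 and 12 together the counts were 11, 13, 11 and 9. Scaling factors from all genes were an alternative chosen after seeing the data, and called 11 members for NT minus Sca-high. No paired analysis was possible because the columns carry a running number and not the replicate number of the titles. Of the 10 members under the filter, 9 had 6 to 464 reads over all 12 libraries, and depth limits their values, while *Tspan18* had 3276.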
